A study of Homo sapiens with 18 samples.

Results

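Connexins are the membrane proteins of gap junctions, and 6 connexin genes are described here: GJA1 (Cx43), GJA3 (Cx46), GJA4 (Cx37), GJB2 (Cx26), GJC1 (Cx45) and GJD3 (Cx31.9). They are 6 of the 20329 genes counted by RNA-seq in HAP1, an established human line of leukaemic origin with a near-haploid genome that grows attached to the dish. The members were chosen from a family list with their measured values in these same libraries known, so their levels and fold changes are given as a description, with no test of their own. The question for each comparison was how the mRNA of GJA1 stood against that of its paralogs when WAPL, SCC4 or both were lost. WAPL is the cohesin release factor and SCC4 a subunit of the cohesin loader. Per the paper, some cohesin is still loaded without SCC4.

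Connexin subunits assemble into hemichannels, and hemichannels of neighbouring cells dock to form channels that pass ions and small metabolites from cell to cell. Cx43 is the most widely expressed member and is known from heart, bone and fibroblasts, Cx26 from inner ear and epidermis, Cx46 from the lens, Cx37 from endothelium and Cx45 from the developing heart and smooth muscle. WAPL releases cohesin from chromatin, and SCC4, the product of MAU2, forms with SCC2 the complex that loads it.

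The 18 libraries fell into 6 groups of 3. Control A and control B were unedited HAP1 cells of 2 sets. ΔWAPL clone 3.3 (set A) and ΔWAPL clone 1.14 (set B) carried a Blasticidine resistance cassette inserted into WAPL, ΔSCC4 cells (set A) a Puromycin resistance cassette inserted into SCC4, and ΔWAPL/ΔSCC4 cells (set A) had SCC4 knocked out on top of clone 3.3. All lines, controls included, share the parental line's mutant p53. Each knockout was represented by clonal lines (2 clones for ΔWAPL), so a property of a clone and the loss of the gene cannot be told apart where only 1 clone was sequenced. The sources do not say whether replicates were separate cultures, and p-values therefore measure the spread between these libraries.

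Reads assigned to genes ranged from 10007646 to 20711127 per library (median 16177867). MAU2 fell from 65.6 ± 6.25 CPM (SD, n = 3) in control A to 0.702 ± 0.243 in ΔSCC4 and 0.934 ± 0.10 in ΔWAPL/ΔSCC4 cells. WAPL mRNA fell to 43.7 ± 5.65 CPM in clone 3.3 and 41.3 ± 2.89 in clone 1.14, from 99.2 ± 21.5 in control A and 121 ± 14.6 in control B. CPM is the read count scaled to library size after TMM normalization. Haematopoietic markers were all but absent: 6 of 7 had at most 3 reads in every library, SPI1 and HBG1 had none, and the 7 together summed to between 0.0603 and 0.553 CPM. Among fibroblast markers LUM was at 0 and DCN at or under 1 read, and COL1A1 was the most abundant. Of the epithelial markers, KRT8 and KRT18 were detected in every library while CDH1 and KRT19 had at most 3 reads.

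GJA1 lies on the plus strand of chromosome 6 (chr6:121756741-121770873, hg19), and GJC1 on the minus strand of chromosome 17 (chr17:42875816-42908184). GJA3 (chr13:20712394-20735191) and GJB2 (chr13:20761602-20767077) are neighbours on the minus strand of chromosome 13, with 26.4 kb between them, and GJB6, which encodes Cx30, follows 29.0 kb beyond GJB2. GJA4 (chr1:35258600-35261348) lies on the plus strand of chromosome 1. GJD3 (chr17:38516904-38520989) has a single annotated exon block, inside which lies the antisense transcript GJD3-AS1. The processed pseudogene GJA1P1 on chromosome 5 is not among the genes counted here, and reads of near-identical stretches may have been lost or misplaced in alignment.

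The start regions of the 3 detected members with a RefSeq window (GRCh38.p14, 250 bases before to 50 after the start, written 5′ to 3′ on the gene's strand) are shown because the genes differed in level and the windows in composition. The GJA1 window is chr6:121435396-121435695 on the plus strand, that of GJB2 chr13:20192889-20193188 on the minus strand, and that of GJA3 chr13:20161003-20161302 on the minus strand. Capitals mark TGANTCA (the AP-1 motif) in GJA1 and GGGCGG or its complement CCGCCC (the GC box) in the other pair.
GJA1: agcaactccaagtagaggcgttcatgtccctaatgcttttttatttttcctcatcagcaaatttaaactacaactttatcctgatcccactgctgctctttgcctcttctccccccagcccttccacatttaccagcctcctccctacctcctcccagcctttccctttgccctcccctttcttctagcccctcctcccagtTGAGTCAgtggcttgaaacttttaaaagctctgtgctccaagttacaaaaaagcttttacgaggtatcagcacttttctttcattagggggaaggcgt
GJB2: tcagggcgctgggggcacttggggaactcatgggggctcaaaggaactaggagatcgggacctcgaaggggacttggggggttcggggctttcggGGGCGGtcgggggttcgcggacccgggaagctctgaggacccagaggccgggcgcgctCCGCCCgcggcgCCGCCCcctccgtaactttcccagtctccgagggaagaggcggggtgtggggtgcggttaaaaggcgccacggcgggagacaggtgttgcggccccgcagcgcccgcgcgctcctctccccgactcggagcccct
GJA3: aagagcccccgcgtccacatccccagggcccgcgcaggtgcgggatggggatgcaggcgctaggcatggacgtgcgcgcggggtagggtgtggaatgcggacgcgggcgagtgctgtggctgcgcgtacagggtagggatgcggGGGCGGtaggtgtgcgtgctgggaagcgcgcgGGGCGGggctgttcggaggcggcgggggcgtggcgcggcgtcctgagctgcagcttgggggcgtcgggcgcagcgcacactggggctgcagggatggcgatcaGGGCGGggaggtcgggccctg

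The GJA1 window was 47.0% G and C, against 71.7% for GJB2, 74.7% for GJA3 and a median of 58.7% over all 35116 windows. It held 1 AP-1 match, TGAGTCA, which begins 48 bases before the start, and no GC box. GJB2 and GJA3 each held 3 GC boxes and no AP-1 match, and TATAAA was in none of these windows. Searched on both strands, TGANTCA was in 7.71% of all windows, GGGCGG in 44.95% and TATAAA in 11.53%, and the motifs do not overlap each other here. These matches describe letters, not bound sites.

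GJA1 was low in control and ΔWAPL cells and high wherever SCC4 was lost. In control A it stood at 0.977, 2.1 and 1.07 CPM, from 15, 34 and 18 reads, and in ΔWAPL clone 3.3 at 1.1, 0.707 and 0.664 CPM, from 22, 10 and 10 reads. These ranges overlapped, and replicate 2 of control A was the highest of the 6. In set B the controls held 3.08, 4.10 and 3.71 CPM and clone 1.14 held 1.01, 0.712 and 0.724 CPM, without overlap.

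ΔSCC4 cells had 11.6, 17.4 and 14.1 CPM of GJA1, and ΔWAPL/ΔSCC4 cells 16.5, 22.3 and 18.04 CPM. Each of these 6 libraries exceeded each of the 12 with intact SCC4, while the 2 groups overlapped each other. In order, the group means were 0.814 ± 0.167 (clone 1.14), 0.823 ± 0.238 (clone 3.3), 1.38 ± 0.620 (control A), 3.63 ± 0.517 (control B), 14.4 ± 2.89 (ΔSCC4) and 18.9 ± 3.01 CPM (ΔWAPL/ΔSCC4). Neighbours in this order overlapped except at the steps from control A to control B and from control B to ΔSCC4.

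**Figure D1:**
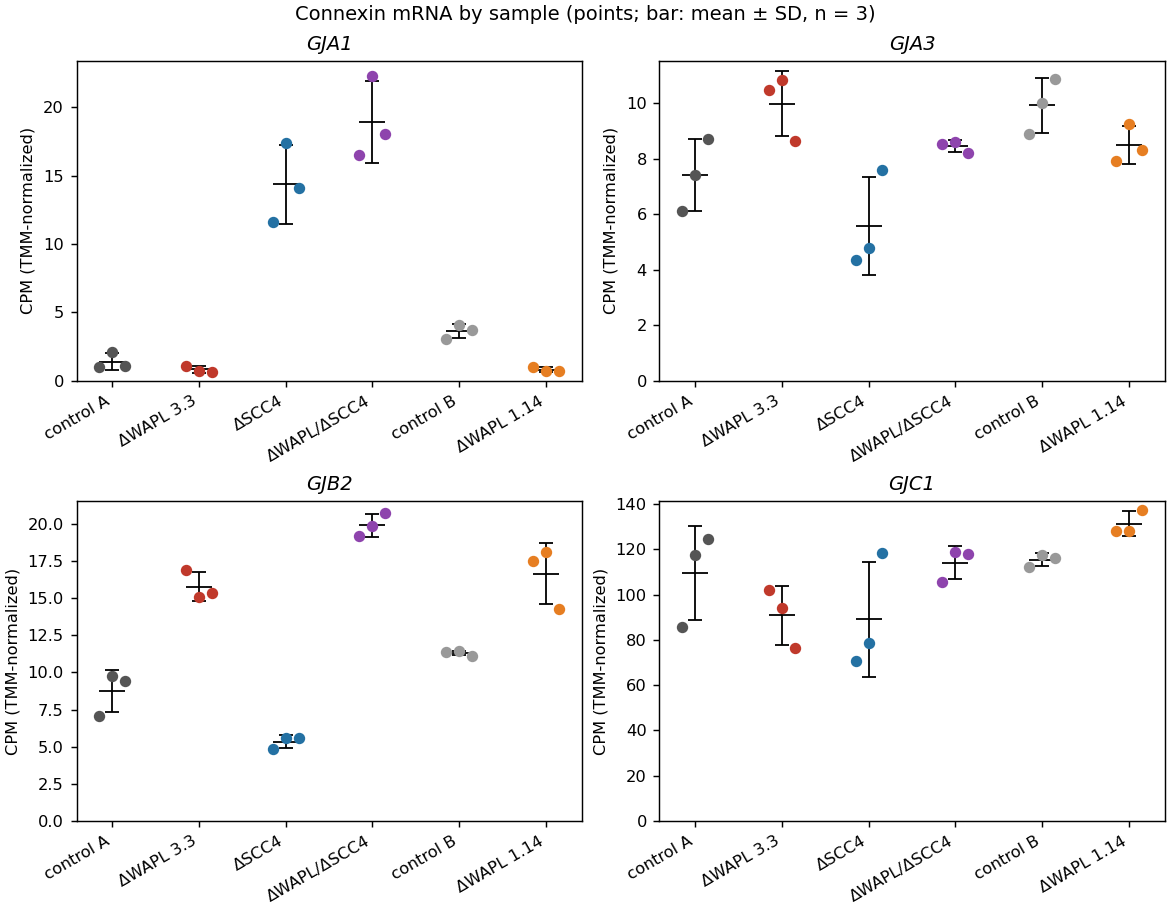
TMM-normalized CPM (y axis, linear from 0, a separate scale in each panel) of GJA1, GJA3, GJB2 and GJC1 in the 6 groups, with a point for each of the 3 libraries and the mean ± SD as a black bar. GJA1 stood between 11.6 and 22.3 CPM in the ΔSCC4 and ΔWAPL/ΔSCC4 libraries and at or under 4.10 CPM in all others.

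The fits below were made with edgeR's quasi-likelihood test over all genes, and a gene counts as past the threshold at a Benjamini-Hochberg adjusted p of 0.05 over all genes tested. Control A is shared by the clone 3.3, ΔSCC4 and ΔWAPL/ΔSCC4 comparisons, so these are not independent of each other. GJA4 and GJD3 were under the expression filter in every fit, which left 4 of the 6 members tested. Since the members were chosen on such values, nothing is read from how many of them passed.

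Without WAPL, over both clones with set as a covariate, the log2 fold change of GJA1 was -1.52 ± 0.28 (SE), that is 2.86-fold lower. GJB2 was 1.62-fold higher (log2 fold change 0.70 ± 0.10). Both were past the threshold, making 2 of the 4 tested members beside 17.7% of all genes tested. GJA3 (0.10, 95% interval -0.19 to 0.39) and GJC1 (-0.04, -0.28 to 0.20) were not.

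By clone, the log2 fold change of GJA1 was -0.73 (95% interval -1.47 to 0.02) in clone 3.3, short of the threshold, and -2.14 (-2.61 to -1.67) in clone 1.14, past it. Leaving out 1 library at a time moved the clone 3.3 value between -1.01 (without its replicate 1) and -0.31 (without control A replicate 2). The difference between the clones was 1.43 (0.47 to 2.40) and did not pass, so the clones are not shown to differ in GJA1. In clone 3.3 the only tested member past the threshold was GJB2, beside 8.07% of all genes. In clone 1.14 GJA1 and GJB2 passed, beside 20.1% of all genes. None of the 4 passed for the difference between clones, beside 2.65% of all genes.

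The 2 sets of controls stood apart in GJA1. Control B stood above control A by 1.38 on the log2 scale (95% interval 0.75 to 2.00), and all 3 control B libraries exceeded all 3 of control A. In the fit of the 6 control libraries no tested member passed, beside 0.640% of all genes, but the call for GJA1 was gained in 4 alternative fits. Set B held no SCC4 knockout, so the gain of GJA1 without SCC4 was measured in set A only.

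In ΔSCC4 cells GJA1 was 10.2-fold above control A (log2 fold change 3.35 ± 0.28). It ranked 35th from the top of 12503 genes by log2 fold change. GJB2 was 1.66-fold lower (-0.73 ± 0.18). These were the members past the threshold, 2 of 4 beside 9.49% of all genes. The call for GJB2 was lost when replicate 2 or 3 of control A or replicate 1 or 2 of ΔSCC4 was left out, with log2 fold changes between -0.86 and -0.65 over all 6 omissions.

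Control A and ΔSCC4 libraries numbered 1 and 3 deviated together with their namesakes (correlations 0.675 and 0.615). Those numbered 2 hardly did (0.115, against 0.114 for control A replicate 2 with ΔSCC4 replicate 3). When the replicate number entered the fit as a block, all 4 tested members passed, beside 46.0% of all genes. The pairing was picked from these same data, so the calls it adds are a description. The blocked log2 fold changes were 3.37 for GJA1, -0.72 for GJB2, -0.41 for GJA3 (95% interval -0.71 to -0.12) and -0.32 for GJC1 (-0.50 to -0.13). In this fit GJB2, GJA3 and GJC1 lay below control A and GJA1 above it.

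In ΔWAPL/ΔSCC4 cells GJA1 was 13.6-fold above control A (log2 fold change 3.77 ± 0.25) and GJB2 2.27-fold above it (1.18 ± 0.14). They made 2 of 4 tested members past the threshold, beside 7.95% of all genes. Against clone 3.3, from which these cells were derived, GJA1 was 22.2-fold higher (4.47 ± 0.22) and was the only tested member past the threshold, beside 10.6% of all genes. GJB2 (0.34, 95% interval 0.07 to 0.60) and GJC1 (0.33, 0.06 to 0.60) fell short of it, and so did GJA3 (-0.24, -0.54 to 0.06).

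**Figure D2:**
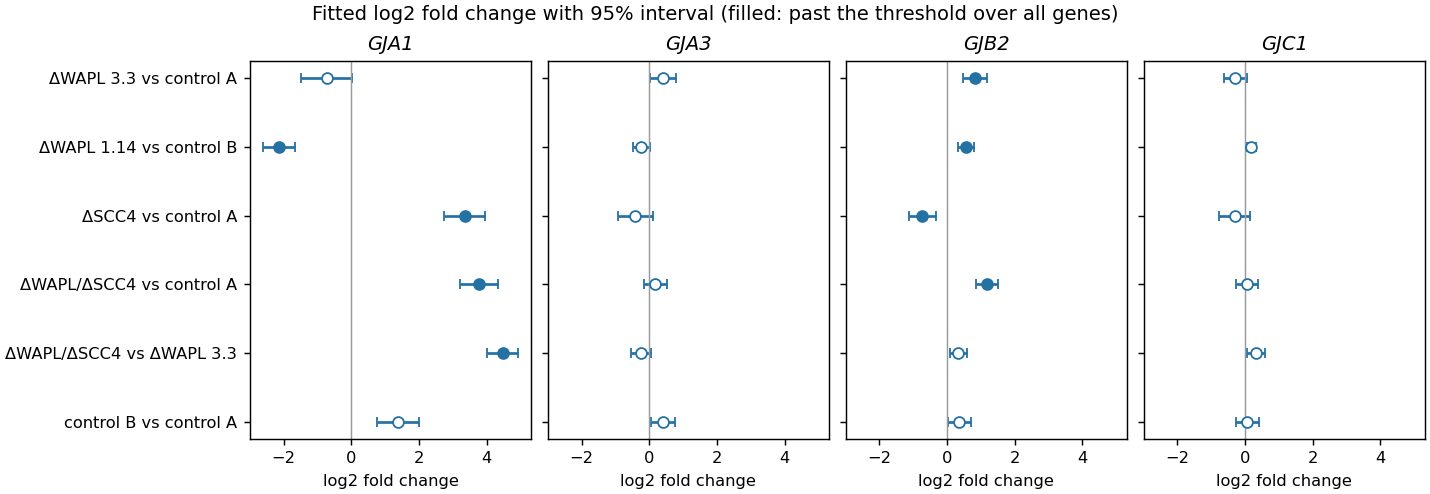
Fitted log2 fold change (x axis) of the 4 tested members in 6 comparisons (y axis), with 95% intervals and filled circles for values past the threshold over all genes. GJA1 spans -2.14 to 4.47, while GJA3 and GJC1 have no filled circle.

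The effect of SCC4 loss with and without WAPL was compared by the interaction of both losses in set A. For GJA1 the interaction was 1.14 (95% interval 0.27 to 2.00) on the log2 scale and did not pass the threshold. For GJB2 it was 1.08 (0.66 to 1.49) and did, making 1 of 4 members beside 11.3% of all genes. GJA3 (0.18, -0.40 to 0.77) and GJC1 (0.65, 0.09 to 1.21) did not.

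GJB2 thus had another order of groups than GJA1. Its libraries held 4.81, 5.60 and 5.60 CPM in ΔSCC4, 7.10, 9.74 and 9.41 in control A, and 11.3, 11.4 and 11.1 in control B. Clone 3.3 held 16.9, 15.1 and 15.3 CPM, clone 1.14 held 17.5, 18.1 and 14.3, and ΔWAPL/ΔSCC4 held 19.2, 19.8 and 20.8. Among neighbours in this order only the 2 ΔWAPL clones overlapped. GJB2 was lowest where GJA1 was second highest, and both were highest in ΔWAPL/ΔSCC4 cells.

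GJA3, the nearest paralog of GJB2 on the chromosome, varied less. It stood at 6.12, 7.40 and 8.70 CPM in control A, 10.5, 10.8 and 8.64 in clone 3.3, and 4.36, 4.78 and 7.60 in ΔSCC4. ΔWAPL/ΔSCC4 cells held 8.53, 8.60 and 8.20 CPM, control B 8.89, 10.0 and 10.9, and clone 1.14 7.90, 9.26 and 8.33. Every pair of neighbours in the order of group means overlapped.

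GJC1 was the most abundant connexin by reads, with 770 to 2416 per library. Control A had 85.7, 118 and 125 CPM, clone 3.3 had 102, 94.1 and 76.5, and ΔSCC4 had 70.5, 78.4 and 118. ΔWAPL/ΔSCC4 cells had 106, 119 and 118 CPM, control B 112, 118 and 116, and clone 1.14 128, 128 and 138. Only clone 1.14, the highest group, stood clear of its neighbour in the order.

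GJA4 had 7 reads in all and GJD3 had 10, with at most 2 in any library. GJA4 was at 0 in 13 of the 18 libraries and GJD3 in 12. In these libraries 3 reads, the approximate 95% upper limit for a count of 0, correspond to 0.149 to 0.305 CPM. No difference in either gene was detectable at this depth, and intervals and limits of this kind cover counting error only.

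Set per kb of exon, which allows levels of different genes to be compared, GJC1 led in every group. In control A it was at 12.5 ± 2.38 CPM per kb, followed by GJB2 at 3.54 ± 0.582, GJA3 at 1.42 ± 0.247 and GJA1 at 0.407 ± 0.183. GJA1 was the lowest of these 4 in both controls and both ΔWAPL clones. In ΔSCC4 cells it reached 4.24 ± 0.853 CPM per kb, above GJB2 (2.16 ± 0.184), and in ΔWAPL/ΔSCC4 cells 5.58 ± 0.886, below GJB2 (8.05 ± 0.321).

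The ratio of GJA1 to GJB2 per kb was 0.113 ± 0.0386 in control A and 0.234 ± 0.0329 in control B. It was 0.0377 ± 0.00843 in clone 3.3 and 0.0358 ± 0.00665 in clone 1.14. Without SCC4 it was 1.95 ± 0.272, and without both 0.693 ± 0.109. GJA1 outnumbered GJB2 per kb in each ΔSCC4 library and in no other, with ratios of 1.76 to 2.27 there.

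As a share of the summed level of all 6 members per kb, GJA1 made up 2.26% in control A, 5.12% in control B, 1.26% in clone 3.3 and 1.01% in clone 1.14. Its share was 24.3% in ΔSCC4 and 19.6% in ΔWAPL/ΔSCC4 cells. The sum itself was 17.9 ± 3.27 CPM per kb in control A, 17.7 ± 3.58 in ΔSCC4 and 28.4 ± 1.82 in ΔWAPL/ΔSCC4 cells. The ΔSCC4 and control A sums overlapped, and the ΔWAPL/ΔSCC4 sums, from 26.3 CPM per kb, lay above both.

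**Figure D3:**
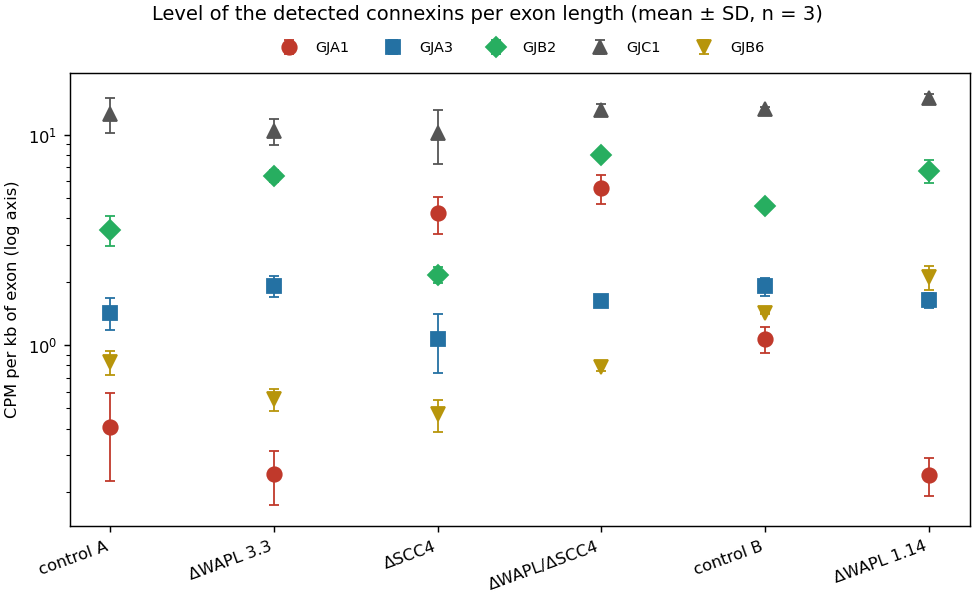
CPM per kb of exon (y axis, log scale) of GJA1, GJA3, GJB2, GJC1 and the related GJB6 in the 6 groups, as mean ± SD of 3 libraries. GJA1 moves from 0.407 CPM per kb in control A to 4.24 in ΔSCC4 and 5.58 in ΔWAPL/ΔSCC4 cells, while GJC1 stays on top throughout.

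Of the 14 other connexin genes counted, 12 were under the filter in every fit, with at most 4 reads in any library, and 5 of them had no read at all. GJB6 passed it. GJB6 held 2.41, 3.08 and 2.62 CPM in control A, 1.37, 1.83 and 1.38 in ΔSCC4 and 2.45, 2.58 and 2.71 in ΔWAPL/ΔSCC4 cells. The ΔSCC4 libraries lay below those of control A and ΔWAPL/ΔSCC4 but overlapped clone 3.3, at 1.94, 1.56 and 1.93 CPM. GJB6 fell by 0.86 on the log2 scale in ΔSCC4 cells against control A (edgeR adjusted p = 0.0375). Its interaction of both losses was 1.37 (adjusted p = 0.00301).

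The log2 fold changes of GJB6 had opposite signs in the ΔWAPL clones, and only that of clone 1.14 was past the threshold. It rose by 0.57 on the log2 scale in clone 1.14 (edgeR adjusted p = 0.0171), where it held 5.94, 7.06 and 7.72 CPM against 4.65, 4.64 and 4.61 in control B. In clone 3.3 its value was -0.59 (adjusted p = 0.139), and the difference between the clones was -1.14 (adjusted p = 0.0114). Control B lay above control A in GJB6 by 0.76 on the log2 scale (edgeR adjusted p = 0.0811).

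Around GJB2, 15 genes within 1 Mb were tested. In ΔSCC4 cells IL17D, a cytokine gene (1.05, edgeR adjusted p = 0.00500), CRYL1, which encodes a crystallin-related dehydrogenase (0.71, adjusted p = 0.0215), and PSPC1, a paraspeckle component (0.59, adjusted p = 0.0196), rose while GJB6 fell. GJA3, GJB2 and GJB6 all had negative log2 fold changes there, but GJA3 did not pass (-0.41, edgeR adjusted p = 0.334). The sign was not particular to this locus, since GJC1 on chromosome 17 was also negative (-0.31). In clone 3.3 and in ΔWAPL/ΔSCC4 cells none of the 15 passed, beside 8.07% and 7.95% of all genes called. In ΔSCC4 cells 3 of the 15 rose and 1 fell, a larger share than the 9.49% of all genes called there. The genes are few, and whether the locus departs from the background was not tested.

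**Figure D4:**
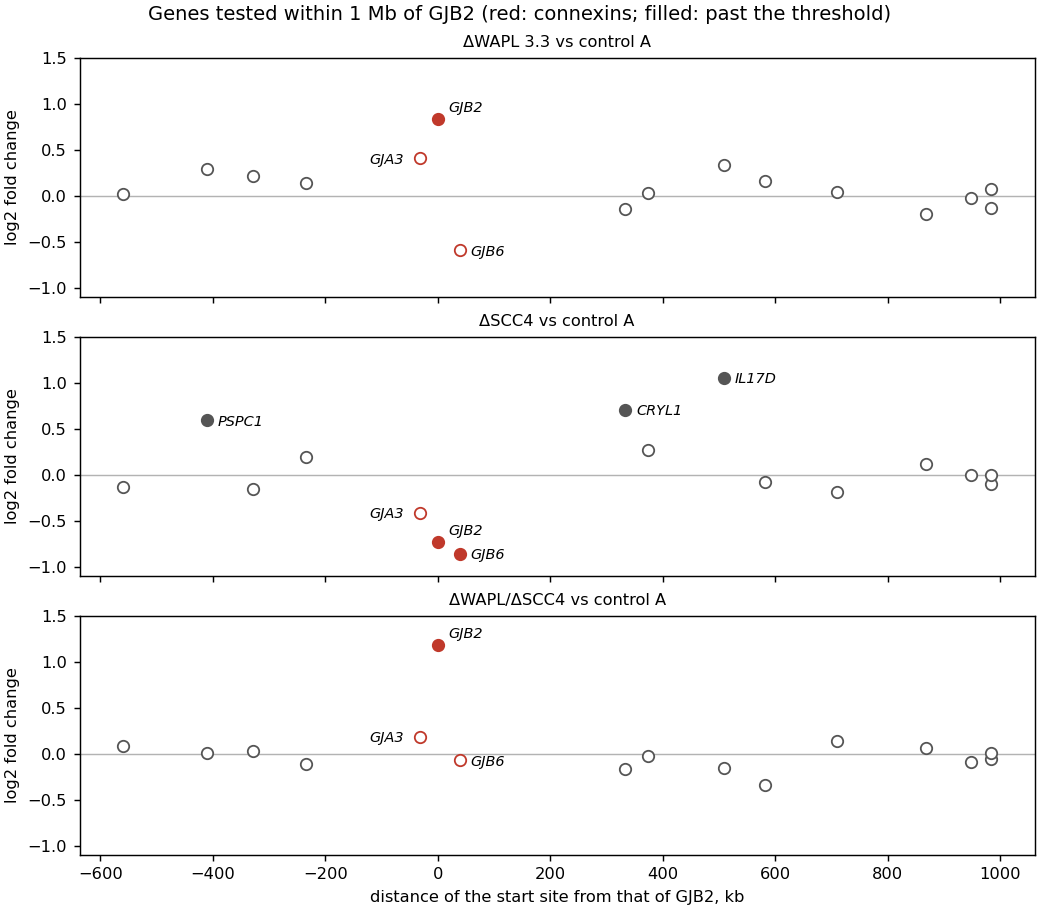
Log2 fold change (y axis) of GJB2 and the 15 tested genes within 1 Mb against the distance of each start site from that of GJB2 in kb (x axis), in 3 comparisons with control A, with connexins in red and filled circles past the threshold. In the ΔSCC4 panel GJA3 (-0.41, short of the threshold), GJB2 (-0.73) and GJB6 (-0.86) lie below 0 and IL17D, CRYL1 and PSPC1 above it.

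GJA1 has few genes around it. TBC1D32, HSF2 and SERINC1 were the 3 genes tested within 1 Mb, and none passed the threshold in any of the 9 comparisons. TBC1D32, the nearest, with its start site at -100.8 kb from that of GJA1, had a log2 fold change of 0.56 ± 0.28 in ΔSCC4 cells (edgeR adjusted p = 0.264), where GJA1 had 3.35.

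At GJD3 the antisense transcript was the one expressed. GJD3-AS1, a long noncoding RNA whose 2094 exon bases all lie inside the 4086 of GJD3, received 21 to 108 reads per library where GJD3 received 0 to 2, so the stranded counting separated them. Its levels were 2.34, 2.65 and 1.85 CPM in control A, 3.99, 5.59 and 6.44 in clone 3.3, and 4.66, 3.32 and 4.58 in ΔWAPL/ΔSCC4 cells. It rose over both ΔWAPL clones by 1.14 on the log2 scale (edgeR adjusted p = 0.000527) and in ΔWAPL/ΔSCC4 cells by 0.88 (adjusted p = 0.0236). In ΔSCC4 cells, at 2.02, 2.75 and 1.45 CPM, it had a log2 fold change of -0.18 (adjusted p = 0.729). CDC6, a replication licensing factor at -76.9 kb by start site, fell there by 0.69 (adjusted p = 0.00578). Of the other genes within 1 Mb, KRT10-AS1 rose by 0.52 over both clones. ERBB2, a receptor tyrosine kinase, rose by 0.36 in clone 1.14 and fell by 0.57 in ΔWAPL/ΔSCC4 cells. Of the 26 genes tested near GJD3, 2 rose over both clones (beside 17.7% of all genes) and 3 in clone 1.14 (beside 20.1%). In ΔSCC4 cells 1 fell (beside 9.49%), and in ΔWAPL/ΔSCC4 cells 1 rose and 1 fell (beside 7.95%).

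Near GJC1, 35 genes were tested within 1 Mb. FMNL1, a formin that shapes the actin cytoskeleton, rose in clone 3.3 (1.84), clone 1.14 (1.94), ΔSCC4 (1.71) and ΔWAPL/ΔSCC4 cells (1.35), with adjusted p of at most 0.00431 in edgeR. ITGA2B, the platelet integrin subunit, fell by 1.14 over both clones, and ACBD4 fell by 0.66. NAGS, which makes the activator of the urea cycle, rose by 0.66 over both clones (adjusted p = 0.0233). These were, with FMNL1, the 4 of 35 called over both clones, beside 17.7% of all genes. C1QL1 fell by 0.71 in clone 1.14, and FZD2, a Wnt receptor, by 0.36. In that clone 1 of the 35 rose and 5 fell, beside 20.1% of all genes. Without the replicate block, GJC1, 390.6 kb from FMNL1 by start site, passed in none of the 4 comparisons given for FMNL1. Near GJA4, 11 genes were tested, of which DLGAP3 fell by 0.50 over both clones and SFPQ, a splicing factor, rose by 0.21 in clone 1.14. Over both clones 1 of the 11 was called (beside 17.7% of all genes). In clone 1.14, 1 rose and 1 fell (beside 20.1%).

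Pannexins form membrane channels without joining cells. PANX2 held 9.25, 6.84 and 6.43 CPM in control A, 15.9, 11.4 and 13.1 in ΔSCC4, and 13.6, 12.5 and 14.4 in ΔWAPL/ΔSCC4 cells. It was chosen after its values were seen, and it rose by 0.84 in each of these comparisons (edgeR adjusted p = 0.0224 and 0.00988). With SCC4 intact, it also rose in clone 1.14 by 0.62 (adjusted p = 0.0125), at 12.8, 14.8 and 14.2 CPM against 10.7, 7.93 and 8.61 in control B. In clone 3.3 its value was 0.09 (adjusted p = 0.896). PANX1 passed in no comparison, and PANX3 was under the filter.

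Of 33 genes for Cx43 partners, trafficking, turnover and kinases, all tested, 3 rose and 3 fell over both ΔWAPL clones, with a median log2 fold change of -0.01 beside 0.00 for all genes. These 6 of 33 stand beside 17.7% of all genes called in that fit. In ΔSCC4 cells 2 rose and 1 fell, or 3 of 33 beside 9.49% of all genes. Both shares were near the background. CAV1, caveolin-1, a membrane scaffold that binds Cx43, was the gene of these lists past the threshold in the same direction over both clones and in each clone. It held 2.15, 1.91 and 2.38 CPM in control A, 1.05, 0.990 and 0.598 in clone 3.3, 0.650, 1.53 and 0.898 in ΔSCC4 and 2.45, 2.21 and 2.09 in ΔWAPL/ΔSCC4 cells. CAV1 fell in ΔSCC4 cells by 1.15 (edgeR adjusted p = 0.0376), where GJA1 was high.

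Of 11 genes known to regulate GJA1 transcription, 2 rose and 2 fell over both clones, beside 17.7% of all genes called. Of 10 tested, 1 rose in ΔSCC4 cells (beside 9.49% of all genes) and 1 in ΔWAPL/ΔSCC4 cells (beside 7.95%). In both it was JUN, a subunit of AP-1, named here after its values were seen. JUN held 3.84, 3.76 and 3.69 CPM in control A, 8.45, 6.82 and 7.12 in ΔSCC4, and 8.25, 6.82 and 6.67 in ΔWAPL/ΔSCC4 cells, without overlap with control A. It rose by 0.98 (edgeR adjusted p = 0.00416) and 0.94 (adjusted p = 0.00262), and fell by 0.60 over both ΔWAPL clones (adjusted p = 0.00206).

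KRT8 moved with GJA1 and GJB2 in ΔWAPL/ΔSCC4 cells, at 51.5, 44.8 and 49.1 CPM against 9.64, 7.64 and 7.15 in control A. The 5 epithelial markers summed to 107 to 130 CPM in ΔWAPL/ΔSCC4 cells and to 41.7 to 81.9 in all other libraries, with CDH1 and KRT19 at 0 in ΔWAPL/ΔSCC4 cells. Of the 3 epithelial markers tested against control A in these cells, 1 rose past the threshold, beside 7.95% of all genes called. Their median log2 fold change was 0.24, so the epithelial sum does not stand for its list. The 6 fibroblast markers summed to 28.4 to 32.5 CPM there and 12.1 to 23.7 elsewhere. Only 2 of these 6 were tested against control A there, and 1 rose and 1 fell past the threshold. The fibroblast sum therefore does not stand for the list. Over both ΔWAPL clones, where GJA1 was lower, 2 of the 3 epithelial markers tested fell past the threshold, beside 17.7% of all genes called. KRT8 fell by 1.62 on the log2 scale (edgeR adjusted p = 7.01e-06) and EPCAM by 2.72 (adjusted p = 5.34e-05). The third did not pass. The epithelial sum was 59.9 to 66.0 CPM in clone 3.3, within the 57.8 to 81.9 of control A. In clone 1.14 the sum was 41.7 to 47.6 CPM against 56.8 to 72.2 in control B. KRT8 held 3.84, 3.68 and 3.65 CPM in clone 3.3, and 2.49, 2.31 and 2.23 in clone 1.14 against 10.6, 11.1 and 9.45 in control B. The part of these markers in the GJA1 and GJB2 values was not tested. In ΔSCC4 cells, where GJA1 was high, KRT8 was at 3.51, 2.75 and 1.80 CPM, below control A, and the fibroblast sum was 12.1 to 12.7. In bulk RNA, fewer cells with a transcript and less transcript per cell cannot be told apart.

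The genes nearest to GJA1 in pattern were found by the root mean square difference of centred log2 CPM over the 18 libraries, among 11562 genes. They were ALX4 (0.93), CHST15 (0.95), GALNT14 (0.97), GLB1L3 (1.00) and TMEM132E (1.02), against 1.80 for the spread of GJA1 around its own mean. JUN came 20th at 1.29. GJC1 came 7702nd (1.85), GJA3 10392nd (1.96) and GJB2 11023rd (2.04). They were all farther from GJA1 than a flat line would be, but so was every gene ranked after GJC1, so this is not particular to the paralogs. The points share depth, set and clones, and the measure is a description.

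ALX4, a homeobox transcription factor, was closest, with 5.72 ± 1.19 CPM in control A, 0.547 ± 0.0514 in clone 3.3, 34.6 ± 3.03 in ΔSCC4 and 76.0 ± 7.67 in ΔWAPL/ΔSCC4 cells. TMEM132E rose with GJA1 in ΔSCC4 cells (28.2 ± 2.83 CPM against 1.37 ± 0.341 in control A) but also rose by 0.91 over both ΔWAPL clones (edgeR adjusted p = 0.00158), where GJA1 was lower. CHST15, a chondroitin sulfate sulfotransferase, fell over both clones by 2.42 and had a log2 fold change of 0.60 in ΔSCC4 cells (adjusted p = 0.131).

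**Figure D5:**
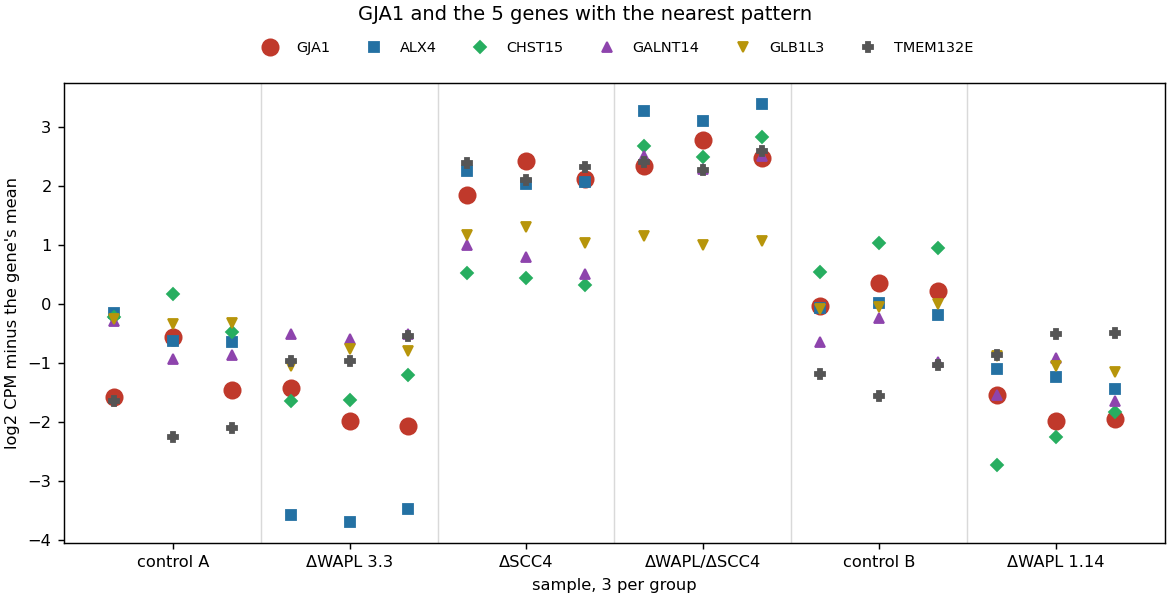
Log2 CPM minus each gene's own mean (y axis) in the 18 libraries (x axis, 3 per group) for GJA1 and the 5 genes nearest to it by root mean square difference, from ALX4 (0.93) to TMEM132E (1.02). The 6 genes lie above their means in all ΔSCC4 and ΔWAPL/ΔSCC4 libraries, but the 5 were picked for nearness to GJA1 in these same libraries. CHST15 lies higher in control B (0.54 to 1.04) than in ΔSCC4 (0.33 to 0.52).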

How the data were processed

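RNA was measured in 18 HAP1 samples with stranded poly(A) libraries. Per the labels and the study's methods, the authors aligned reads to hg19 with TopHat (TopHat2 2.0.9 in the submitters' processing notes) and deposited raw HTSeq read counts per gene. The annotation is not given in the sources used here. Between 20.3% and 22.6% of reads lay in HTSeq summary lines that name no gene (unassigned, ambiguous or not uniquely aligned), which were left out. Ensembl IDs were matched to GENCODE for 96.6% of 20329 genes, and exon lengths are unions of its exons. Sets A and B follow the control titles, and those of the knockouts the run number in the deposited counts' names.

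Counts were tested with edgeR 4.0.16 in R 4.3.3 (TMM, filterByExpr, quasi-likelihood test, Benjamini-Hochberg over all genes tested), with DESeq2 1.42.0 as an alternative. Each pair of groups was fitted on its 6 libraries; fits over both clones and of interactions used 12. The analysis was tested on simulated data. Same-numbered libraries were taken as pairs where every correlation of their deviations exceeded 0.1, which held for control A with ΔSCC4 alone (0.115 to 0.675, a hint from the data, since no source says what a number marks). Alternatives were no filter, scaling by total counts, DESeq2, a replicate block, 1 fit over all 18 samples and leaving out each library. No replicates were identical.

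Members and lists were chosen with earlier results of these data known. Named besides the members were other connexins passing the filter, list genes past the threshold in both clones, called genes within 1 Mb (at most 6 a locus, by size) and the 5 nearest patterns. Some results for other connexins are not reported here.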

Additional observations from a re-analysis of the deposited data

Results flagged for a closer look

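The interaction of WAPL and SCC4 loss for GJB2 was 1.08 on the log2 scale (95% interval 0.66 to 1.49), past the threshold in the edgeR fit. The log2 fold change of GJB2 without SCC4 was -0.73 with WAPL present and 0.34 with it absent. The call for -0.73 was lost in 4 of 6 omissions of a library, and 0.34 was short of the threshold. ΔSCC4, clone 3.3 and ΔWAPL/ΔSCC4 were each 1 clonal line, so a property of a clone and the loss of a gene cannot be told apart here. GJB2 belongs to a set chosen with these results known, so the value is a description. Groups of 3 libraries were too small for a test of single outlying libraries.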

How the results depend on the processing

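Apart from omissions of a library, 90 of 102 summary values and 132 of 135 single values were unchanged. For a fold change this means the same direction and the same side of the threshold. For a count of members it means an equal or close count, and for a GJA1 CPM mean a shift smaller than its SD. When same-numbered libraries were blocked, 4 members passed in ΔSCC4, 2 against clone 3.3 in ΔWAPL/ΔSCC4 (GJC1 gained, 0.34) and 1 in control B against A (GJA1, 1.40); the block changed no other call. For the latter comparison 1 member, GJA1, also passed with no filter (1.37), with DESeq2 (1.39) and in 1 fit over all 18 samples (1.39). DESeq2 gave 2 members for the interaction (GJA1, 1.13).

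Leaving out 1 library at a time gave 1 to 2 members in ΔSCC4, 1 to 2 in ΔWAPL/ΔSCC4 against clone 3.3 (2 without clone 3.3 replicate 1), 0 to 1 for the clone difference and 1 to 3 for the interaction. GJA1 ranged from 1.13 to 1.86 for the clone difference (past the threshold without control A replicate 2) and from 0.71 to 1.43 for the interaction (past it without control A replicate 1). The sign turned for GJA3 over both clones (-0.0022 to 0.165, without control A replicate 1) and for GJC1 over both clones (-0.095 to 0.033), in ΔWAPL/ΔSCC4 (-0.068 to 0.166) and between controls (-0.060 to 0.167). GJC1 gained a call in clone 1.14 (0.20, without control B replicate 2), for the clone difference (-0.61) and the interaction (0.79) without control A replicate 1, and for the interaction without ΔSCC4 replicate 3 (0.91). The causes were not tested. With 10 to 34 reads of GJA1 per library in control A and both ΔWAPL clones, depth limits its lower values.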
